A study of Drosophila melanogaster with 6 samples.

Results

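The transcripts described here are those whose signal was strongly lost in ovaries of an upSET mutant of Drosophila melanogaster. They were chosen from the deposited log2 values by 2 conditions. The mean of the mutant arrays had to lie 2 or more below the mean of the wild-type arrays, a 4-fold lower intensity, and every mutant value had to lie below every wild-type value. These conditions selected 74 of 15473 features, or 0.478% of the table. The selection used the comparison of the genotypes itself, so the levels and changes of the 74 transcripts are a description and carry no test.

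Whole ovaries were taken from 2-day-old females of 2 lines. The upSET mutant carried the strain name upSETPBac{WH}CG9007e000365, that is, a piggyBac transposon insertion in CG9007, and the design text calls the same insertion epic(e00365). The wild type was the strain OregonG, so the lines may differ elsewhere in the genome, and the insertion cannot be told apart from such differences. Each group had 3 arrays from separate dissections, hybridised with Cy3-labelled RNA to 1-colour arrays with 4 probes for each target.

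upSET encodes a SET-domain chromatin protein of Drosophila that is known to act with a histone deacetylase complex and to restrict the spread of active chromatin marks. Its mammalian relatives include MLL5. The ovary holds germline cells, among them the nurse cells and the oocyte, and the somatic follicle cells that surround them and secrete the eggshell. In whole ovaries, fewer cells of a type and less RNA per cell cannot be told apart.

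The arrays carry FlyBase transcript identifiers. The RefSeq gene table used here paired 44 features with gene symbols, and none of these was among the 74, so the lost transcripts are given by identifier and no function is stated for them. The feature for upSET itself was not identified in this way, so its level is not reported and cannot serve as a check of the labels. None of the listed marker genes of germline, follicle cells, muscle, fat body, gut or testis was paired with a feature, and the labelled tissue was not checked against them. Of the 11 listed chromatin genes, kis and HDAC3 were paired. Neither kis, a trithorax-group remodeller, nor HDAC3, a histone deacetylase, passed the limma test at an adjusted p of 0.05, with log2 changes of 0.40 (SE 0.15, adjusted p = 0.126) and 0.19 (SE 0.17, adjusted p = 0.545).

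Array medians ran from 11.18 to 11.27, and correlations across features were 0.994 to 0.996 within a genotype and 0.980 to 0.982 between genotypes. One array stood apart in a way that touches the lost transcripts. On wild-type replicate 1, 11 features lay at least 2 log2 units below both other wild-type arrays, and 4 of these 11 were among the 74. On the other 5 arrays, 0 to 3 features lay that far below both other arrays of their genotype, and none of them was among the 74. Upward departures of the same size numbered 13 on mutant replicate 2 and 0 to 3 on the other arrays, again with none among the 74. The changes of lost transcripts that were low on wild-type replicate 1 are given below with and without it. Counts and shares, those of neighbouring features among them, use all arrays unless stated.

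Over the 74 transcripts the fall ran from -6.348 to -2.002 on the log2 scale, with a median of -2.45, a 5.48-fold lower intensity. Most lay close to the limit, since 40 of 74 fell short of a change of -2.5. A fall of 8-fold or more was seen in 22 transcripts and one of 16-fold or more in 7. The distance from the lowest wild-type value to the highest mutant value had a median of 1.98 and exceeded 1 in 66 transcripts. The median of the 74 values was 7.11, 7.60 and 7.31 on mutant replicates 1, 2 and 3, against 10.03, 10.45 and 10.50 on wild-type replicates 1, 2 and 3. Over all 15473 features the median change was -0.03.

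With limma and Benjamini-Hochberg adjustment over all features, 72 of the 74 passed an adjusted p of 0.05, where 7.30% of all features were called lower. Every mutant value lay below every wild-type value in 17.6% of all features and, by the rule, in all 74. Both counts follow from how the 74 were chosen. The 2 that did not pass, FBtr0077753 and FBtr0077805, were both low on wild-type replicate 1, and all 74 passed when that array was left out.

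**Figure D1:**
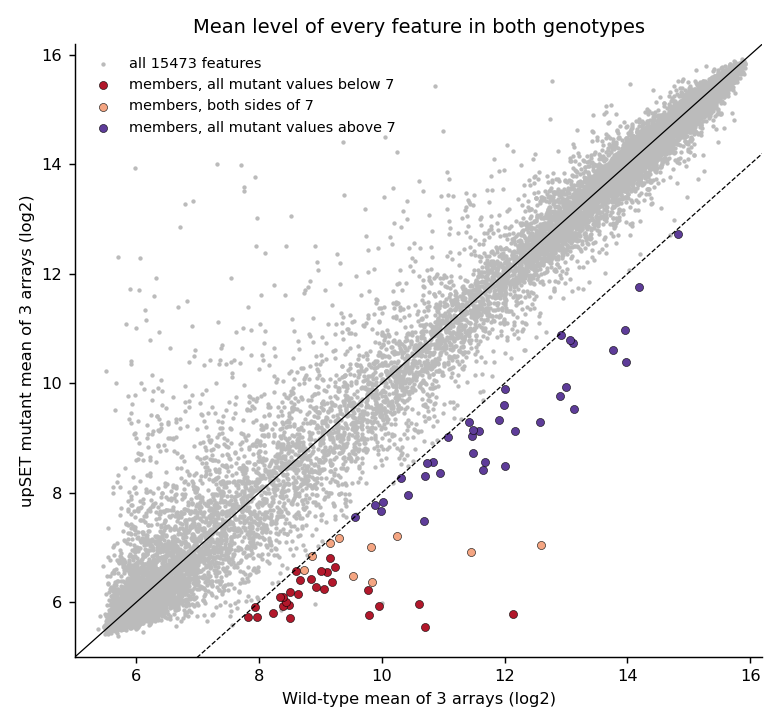
Mean level of every feature on 3 upSET mutant arrays (vertical axis, log2) against 3 wild-type arrays (horizontal axis, log2). Grey points are all 15473 features, coloured points the 74 lost transcripts by class; the solid line marks equal levels and the dashed line a change of -2. The members lie on or below the dashed line at wild-type levels from 7.81 to 14.82.

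The 74 fell into 3 classes by their level in the mutant. In 28 transcripts all 3 mutant values were below 7 (silenced), in 36 all 3 were above 7 (reduced), and in 10 the mutant values lay on both sides of 7. The value of 7 lies near the bottom of the scale, where the lower quartile of the mutant means over all features was 6.498. No detection calls were used here, so silenced names a measured level and not the absence of a transcript, and a fold near the bottom is one of intensities. Intensities of different features come from different probes, so where a feature lies on the scale does not rank transcript amounts.

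The silenced transcripts came mainly from modest wild-type intensities. Their mutant means ran from 5.54 to 6.80 with a median of 6.09, and their wild-type means ran from 7.81 to 12.14 with a median of 8.76. In 23 of the 28 the mutant mean lay below the lower quartile of the mutant means of all features. By wild-type mean none lay below the wild-type lower quartile of 6.46, 27 lay between it and the median of 11.19, and 1 lay above the median. The class rule keeps the mutant values below 7. With 5.301 as the lowest value of the table, a fall of 2 or more cannot start below that lower quartile. The median fall was -2.47.

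The reduced transcripts started higher than the silenced ones. The class rule itself favours this, since their mutant values stayed above 7 after a mean fall of 2 or more. Their mutant means ran from 7.49 to 12.72 with a median of 9.13, and their wild-type means from 9.56 to 14.82 with a median of 11.66. The median fall, -2.44, was close to that of the silenced class, and the fall reached at most -3.59, where the silenced class reached -6.35. The cut at 7 also limits how far a reduced transcript can fall from a given wild-type level. By mutant mean, 34 of the 36 lay between the lower quartile and the median of all features and 2 between the median and the upper quartile. By wild-type mean, 22 of the 36 lay between the median and the upper quartile and 2 above the upper quartile of 14.16.

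**Figure D2:**
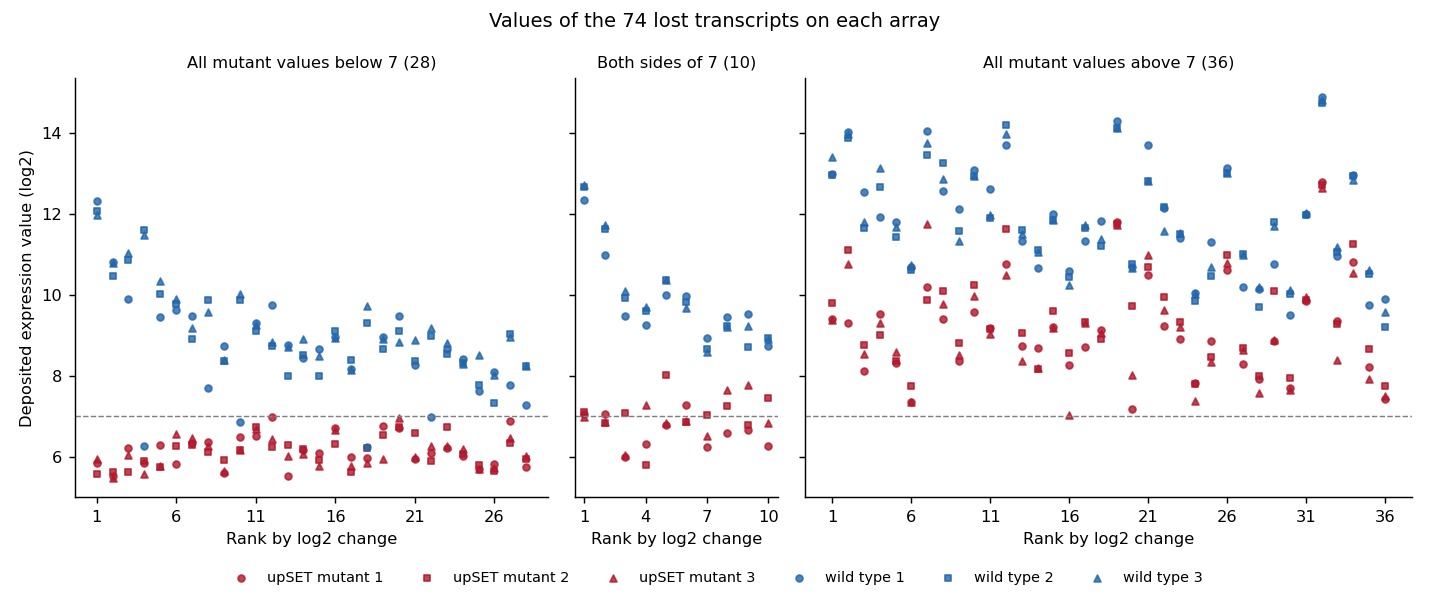
Deposited values (vertical axis, log2) of the 74 lost transcripts on each of the 6 arrays, ordered by log2 change within each class (horizontal axis, rank). Red symbols are upSET mutant replicates, blue symbols wild-type replicates, and the dashed line marks 7; in 4 silenced transcripts the circle of wild-type replicate 1 lies near the mutant values and below 7.

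By wild-type intensity, the lost transcripts were unevenly spread along the scale. Of 1576 features with a wild-type mean from 7 to 9, 18 were lost (1.14%), and of 1291 from 9 to 11, 28 were lost (2.17%). From 11 to 13 the count was 20 of 1788 (1.12%). Above 13, where 6083 features lay, it was 8 (0.132%). The highest value of the whole table was 15.99, and whether falls are understated near the top of the scale was not tested. Below 7 there was none among 4735 features, and the lowest value of the whole table, 5.301, limits a 4-fold fall below 7 and just above it. Features that met the mirrored rule for gains had a mean 2 or more higher in the mutant and groups that did not overlap. By mutant mean they numbered 38 from 7 to 9, 104 from 9 to 11, 52 from 11 to 13 and 38 above 13. The counts of both sets were largest from 9 to 11. All features were not counted by mutant level, so no share is given for the gains.

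The largest fall belonged to the silenced transcript FBtr0077067, with 5.85, 5.57 and 5.95 in mutant ovaries, against 12.33, 12.09 and 11.99 in wild-type ovaries. FBtr0082093 had 5.52, 5.61 and 5.48 in mutant ovaries, against 10.82, 10.47 and 10.80 in wild-type ovaries. In both, the groups stood far apart and the arrays of 1 genotype lay close together. The log2 change was -6.35 (SE 0.15) for FBtr0077067, an intensity 81.5-fold lower, and -5.16 (SE 0.14) for FBtr0082093, 35.7-fold lower.

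In 3 more silenced transcripts every wild-type array stood well above the mutant arrays. FBtr0081821 had 6.23, 5.63 and 6.05 in the mutant, against 9.90, 10.87 and 11.03 in the wild type (log2 change -4.63, SE 0.30). FBtr0075169 had 6.28, 5.75 and 5.77 in the mutant, against 9.47, 10.03 and 10.34 in the wild type (-4.01, SE 0.24). FBtr0084916 had 5.83, 6.26 and 6.56 in the mutant, against 9.64, 9.77 and 9.89 in the wild type (-3.55, SE 0.19). In each of these the lowest wild-type value was at least 3.08 above the highest mutant value.

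The sixth of the largest silenced falls, FBtr0077753, had a split wild type. It had 5.84, 5.89 and 5.58 in the mutant, against 6.26, 11.60 and 11.49 in the wild type. Wild-type replicate 1 was thus near the mutant arrays, and the others were more than 5 units higher. Its change was -4.02 (SE 1.25) with all arrays and -5.78 (SE 0.15) without wild-type replicate 1.

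The same split of the wild type was seen in 3 further silenced transcripts. FBtr0077805 had 5.96, 6.21 and 5.84 in the mutant, against 6.25, 9.30 and 9.74 in the wild type, and only 0.046 separated its groups. FBtr0071989 had 6.49, 6.17 and 6.17 in the mutant, against 6.87, 9.87 and 10.02 in the wild type. FBtr0076512 had 6.10, 5.88 and 6.28 in the mutant, against 6.97, 8.98 and 9.19 in the wild type. Without wild-type replicate 1 the changes were -3.52 for FBtr0077805, -3.67 for FBtr0071989 and -2.999 for FBtr0076512, where all arrays gave -2.43, -2.65 and -2.29. In all, wild-type replicate 1 lay at least 1 unit below both other wild-type arrays in 6 of the 74. The remaining 2 were FBtr0080642, which changed by -2.81 with all arrays and by -3.49 without that array, and FBtr0074987, which changed by -2.03 with all arrays and by -2.44 without it.

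Of 77 features with a mean change of -2 or less, 3 were not members because their groups overlapped, and all 3 were low on wild-type replicate 1. FBtr0077802 had 5.89, 5.96 and 6.09 in the mutant, against 6.00, 11.91 and 12.11 in the wild type. FBtr0077804 had 6.24, 5.82 and 5.81 in the mutant, against 6.13, 10.40 and 10.19 in the wild type. FBtr0071991 had 5.99, 5.84 and 5.72 in the mutant, against 5.95, 9.51 and 9.59 in the wild type. Without wild-type replicate 1 their changes were -6.03, -4.34 and -3.70. Their identifiers stand beside or close to those of the members FBtr0077805 and FBtr0071989. Without that array the rule selected 82 transcripts, of which 71 were among the 74. Why wild-type replicate 1 differed at these transcripts was not tested. From array intensities, a lower transcript level and a difference in the sequence or copy number of the probed gene between flies cannot be told apart, for these or for the other lost transcripts.

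**Figure D3:**
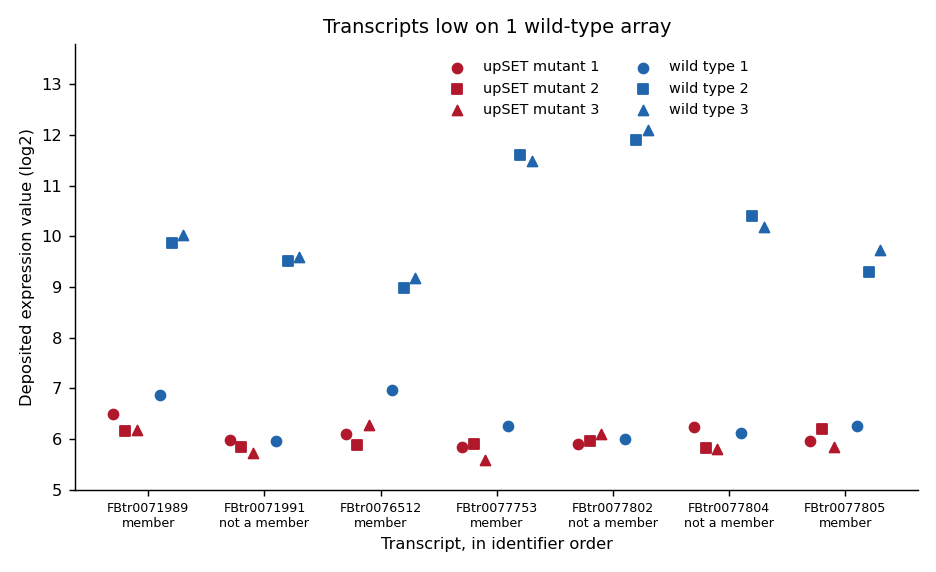
Values (vertical axis, log2) of the 7 transcripts that had a mean change of -2 or less and lay at least 2 units lower on wild-type replicate 1 than on both other wild-type arrays, in identifier order. Red symbols are upSET mutant arrays, blue symbols wild-type arrays; the blue circle, wild-type replicate 1, lies between 5.95 and 6.97, near the mutant values, while the other wild-type arrays lie between 8.98 and 12.11.

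Of the silenced transcripts, the 3 with the lowest wild-type means lay close to the bottom of the scale in the mutant. In the wild type they lay above the lower quartile of all features, 6.46. FBtr0083836 averaged 5.73 ± 0.09 in the mutant and 7.81 ± 0.42 in the wild type (SD, n = 3 each). FBtr0083996 averaged 5.90 ± 0.14 in the mutant and 7.92 ± 0.56 in the wild type, and FBtr0078409 averaged 5.73 ± 0.05 in the mutant and 7.97 ± 0.47 in the wild type. The wild-type arrays varied more than the mutant arrays in all 3.

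Among the 10 transcripts with mutant values on both sides of 7, a pair fell as far as the leading silenced ones. FBtr0072881 had 7.05, 7.10 and 6.98 in the mutant, against 12.36, 12.67 and 12.73 in the wild type (log2 change -5.54, SE 0.14). FBtr0082985 had 7.06, 6.85 and 6.87 in the mutant, against 10.99, 11.63 and 11.72 in the wild type (-4.52, SE 0.20). Both sat within 0.155 of the value that divides the classes on every mutant array.

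In the other 8 of this class the changes ran from -3.47 to -2.01. FBtr0071057 also stayed near 7, at 7.27, 6.85 and 6.88 in the mutant, against 9.98, 9.82 and 9.67 in the wild type. In 4 others, 1 mutant array stood above the rest. In FBtr0085605 it was mutant replicate 2, with 6.00, 7.08 and 6.03 in the mutant, against 9.49, 9.92 and 10.10 in the wild type.

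FBtr0084681 showed the same order, with 6.78, 8.03 and 6.82 in the mutant, against 10.0001, 10.38 and 10.37 in the wild type. FBtr0086643 was highest on mutant replicate 3, with 6.32, 5.81 and 7.28 in the mutant, against 9.26, 9.61 and 9.70 in the wild type. FBtr0084606 was too, with 6.66, 6.79 and 7.79 in the mutant, against 9.52, 8.73 and 9.24 in the wild type. The remaining 3 had smaller falls, -2.14 for FBtr0081103, -2.13 for FBtr0079839 and -2.01 for FBtr0100243, with mutant values from 6.23 to 7.66 and wild-type values from 8.58 to 9.45.

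The largest falls of the reduced class ended well above 7 on every mutant array in 3 transcripts. FBtr0082094 had 9.42, 9.80 and 9.37 in the mutant, against 12.99, 12.97 and 13.42 in the wild type (log2 change -3.59, SE 0.18). FBtr0081707 had 8.13, 8.77 and 8.54 in the mutant, against 12.56, 11.65 and 11.81 in the wild type (-3.53, SE 0.26). FBtr0085987 had 9.54, 9.01 and 9.32 in the mutant, against 11.93, 12.67 and 13.15 in the wild type (-3.29, SE 0.29). In all 3, the groups were separated by more than 2 log2 units.

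FBtr0082504 and FBtr0072916 were the most even of the leading reduced transcripts. FBtr0082504 had 8.31, 8.38 and 8.58 in the mutant, against 11.80, 11.43 and 11.70 in the wild type (log2 change -3.22, SE 0.14). FBtr0072916 had 7.36, 7.76 and 7.35 in the mutant, against 10.70, 10.62 and 10.75 in the wild type (-3.20, SE 0.15).

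The mutant arrays disagreed most in 3 reduced transcripts. FBtr0080140 had 7.17, 9.73 and 8.03 in the mutant, against 10.69, 10.76 and 10.67 in the wild type (log2 change -2.40, SE 0.54). FBtr0076196 had 10.21, 9.88 and 11.76 in the mutant, against 14.05, 13.48 and 13.76 in the wild type (-3.15, SE 0.44). FBtr0082287 had 9.30, 11.10 and 10.77 in the mutant, against 14.04, 13.89 and 13.99 in the wild type (-3.58, SE 0.41). These 3 were picked for the spread of their mutant arrays. The wild-type arrays stood within 0.572 of each other in each of them.

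Of the 3 lost transcripts with the highest wild-type means, FBtr0082287 was among those just described, and the other two were even on all arrays. FBtr0082174 had 12.80, 12.72 and 12.64 in the mutant, against 14.89, 14.75 and 14.83 in the wild type (log2 change -2.10, SE 0.11). FBtr0072678 had 11.80, 11.76 and 11.73 in the mutant, against 14.30, 14.14 and 14.13 in the wild type (-2.43, SE 0.11).

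Mutant replicate 2 was the highest mutant array in 38 of the 74 transcripts (51.4%), where it was the highest in 34.4% of all features. In the reduced class it was the highest in 23 of 36, and in the silenced class in 10 of 28. Among the wild-type arrays, replicate 1 was the lowest in 31 of the 74 (41.9%), where it was the lowest in 37.3% of all features. A spread over 0.5 (SD) was seen in 13 transcripts among the mutant arrays and in 12 among the wild-type arrays.

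At the limit of the rule, the members just inside were FBtr0076970 at -2.002, FBtr0100243 at -2.01 and FBtr0083996 at -2.02. The features just outside, with groups that did not overlap, were FBtr0082321 at -1.99, FBtr0081210 at -1.99 and FBtr0081063 at -1.97. FBtr0081210 averaged 12.70 ± 0.16 in the mutant and 14.69 ± 0.02 in the wild type (SD, n = 3 each). The limit therefore cuts through a continuous range of falls, and 157 features met the rule with a limit of -1.5.

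The mirrored rule, a mean 2 or more higher in the mutant with every mutant value above every wild-type value, selected 232 features. Of the lost transcripts, 28 (37.8%) had all mutant values below 7. Of the gained features, 92 (39.7%) had all wild-type values below 7.

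Identifier order was used to look beside the lost transcripts, since 81.9% of neighbouring rows of the table carried consecutive identifier numbers. Neighbouring identifiers can belong to transcripts of 1 gene or to different genes, and the tables used here do not tell which. In 2 cases, members stood next to each other. FBtr0082093 and FBtr0082094, both described above, changed by -5.16 and -3.59. FBtr0084857 averaged 8.36 ± 0.30 in the mutant and 10.95 ± 0.25 in the wild type, and FBtr0084858 averaged 6.56 ± 0.22 in the mutant and 9.005 ± 0.10 in the wild type (SD, n = 3 each).

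A further 2 pairs of members had 1 feature between them. FBtr0074985 and FBtr0074987, of which the second was given above, changed by -2.37 and -2.03, and by -2.28 and -2.44 without wild-type replicate 1. The feature between them, FBtr0074986, had 6.60, 6.77 and 6.58 in the mutant, against 8.38, 7.80 and 7.74 in the wild type (log2 change -1.33, SE 0.18, limma adjusted p = 0.00207). FBtr0074929 and FBtr0074931 changed by -2.39 and -3.12, and FBtr0074930 between them by -0.82 (SE 0.26, limma adjusted p = 0.0695). The first of these features passed the test and the second did not.

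The 142 features directly beside the 74, members left out, had a median log2 change of -0.04, against -0.03 over all features. In limma 14 of them were lower (9.86%), where 7.30% of all features were, and 6 were higher (4.23%), where 8.05% of all features were. A fall of 2-fold or more was seen in 8 of the 142 (5.63%), against 2.83% of all features. These counts use all arrays. The 8 include FBtr0077804, which was low on wild-type replicate 1. They also include FBtr0083782, which changed by -1.08 with all arrays and by -0.65 without wild-type replicate 1. Within 5 rows, 58 of 688 were lower (8.43%) and 51 higher (7.41%), where 7.30% and 8.05% of all features were. The shares over all features include the 74 themselves, of which 72 were called lower, so the shares of falls without them are smaller.

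**Figure D4:**
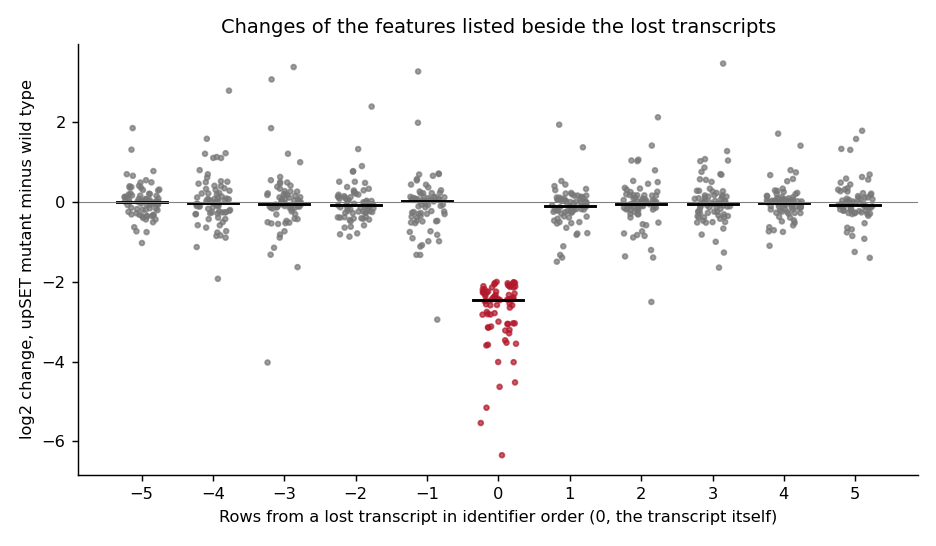
Log2 change, upSET mutant minus wild type (vertical axis), of the 74 lost transcripts (red, at 0) and of the non-member features up to 5 rows before and after each of them in identifier order (grey, horizontal axis); black bars are medians. The medians beside the lost transcripts lie near 0.

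Among the direct neighbours that passed the test, 6 were lower by 2-fold or more. The share of all features that met both conditions was not counted, so the 6 are only described. FBtr0081900, beside the silenced transcript FBtr0081899, changed by -1.495 (SE 0.31, limma adjusted p = 0.0150) and FBtr0084859, beside FBtr0084858, by -1.39 (SE 0.18, adjusted p = 0.00160). FBtr0074986 was described above. FBtr0080139 had 12.42, 13.31 and 12.42 in the mutant, against 13.98, 14.17 and 13.97 in the wild type (-1.32, SE 0.24, limma adjusted p = 0.00733). Like its neighbour FBtr0080140, it was highest among the mutants on replicate 2. FBtr0070536 changed by -1.12 (limma adjusted p = 0.00129) and FBtr0085308 by -1.11 (adjusted p = 0.00314). Without wild-type replicate 1, FBtr0085308 changed by -0.98, short of a 2-fold fall.

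Some lost transcripts stood beside a feature that rose. FBtr0076221 had 11.18, 10.71 and 10.07 in the mutant, against 7.44, 7.33 and 7.37 in the wild type (log2 change 3.27, SE 0.25, limma adjusted p = 8.76e-05), while the member beside it, FBtr0076222, had 8.86, 8.46 and 8.34 in the mutant, against 11.31, 10.48 and 10.69 in the wild type. FBtr0072695 changed by 1.99 (SE 0.26, limma adjusted p = 0.00141) beside the member FBtr0072696 at -3.06. FBtr0073279 changed by 1.94 (SE 0.23, limma adjusted p = 0.000943) beside FBtr0073278 at -2.19. The 3 neighbours and the 3 members had non-overlapping groups in opposite directions.

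One of the neighbours had gene names. FBtr0081102, a transcript shared by CG17325 and CG42305, stands beside FBtr0081103, and it had 6.30, 6.17 and 6.13 in the mutant, against 5.92, 5.37 and 5.58 in the wild type (log2 change 0.58, SE 0.16, limma adjusted p = 0.0448). FBtr0081103 itself was lost, at 6.23, 7.03 and 6.52 in the mutant, against 8.94, 8.67 and 8.58 in the wild type.

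The named features also served as rough markers of chromosome arm for the identifier ranges between them, with arms taken from Release 6 plus ISO1 MT. Between named features of arm 3R lay 22 of the 74 lost transcripts (29.7%), with 2586 of all features (16.7%). Between those of 2R lay 2 lost transcripts (2.70%), with 2394 of all features (15.5%). The ranges between 2L genes and between 3L genes held 9 and 8 lost transcripts (12.2% and 10.8%), with 12.4% and 11.6% of all features. The gained features were at 15.5% in the 3R range and 16.4% in the 2R range. Among all features, 7.31% were called lower in the 3R range and 6.73% in the 2R range. Another 33 lost transcripts lay in ranges between arms, no position was given to any single transcript, and the uneven counts were not tested.

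**Figure D5:**
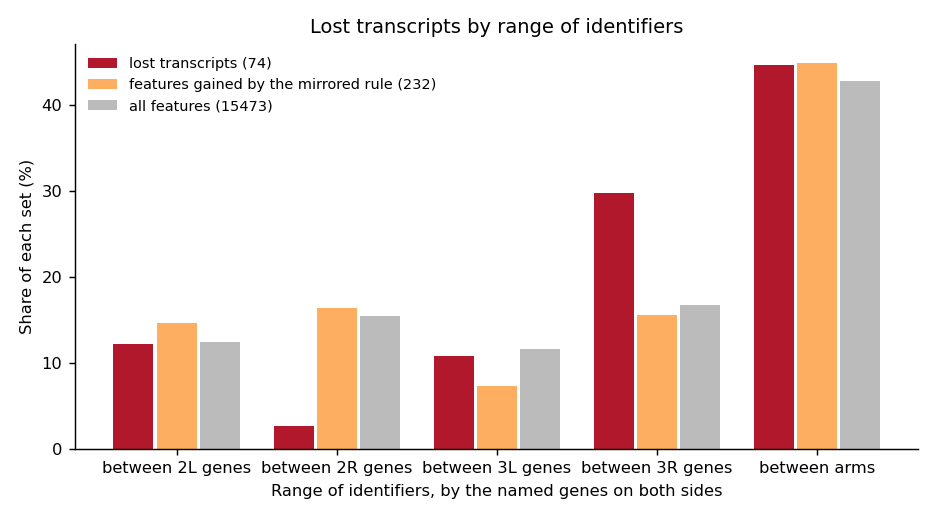
Share (vertical axis, %) of the 74 lost transcripts, of the 232 features gained by the mirrored rule and of all 15473 features, by the range of identifiers in which they lie (horizontal axis), named for the arm of the named genes on both sides. The 3R range holds 29.7% of the lost transcripts and 16.7% of all features, the 2R range 2.70% and 15.5%; ranges with under 1000 features are not drawn.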

How the data were processed

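Per the labels' protocols, RNA of 6 ovary samples was labelled with Cy3 and hybridised, and NimbleScan 2.4 extracted the intensities. The values deposited by the authors are on a scale taken as log2, since they run from 5.301 to 15.99, and RMA is the tool in the submitters' processing notes. For the RMA settings, build and annotation, nothing is given in the sources used here, and scanner values were not used. Groups came from the sample titles, as did replicate numbers, which share no stated batch. limma 3.58.1 (R 4.3.3) was run on all 15473 features (lmFit and eBayes with genotype only, no filter), with two-sided p-values and Benjamini-Hochberg adjustment. On simulated data for this comparison over 15473 features, limma called 58% of falls of 1, 92% of falls of 2 and 100% of falls of 4 on the log2 scale. Each size of fall was given to 50 features, and the share called was not split by level. The simulated noise was normal and independent, with no floor. Far fewer features were changed than the 1130 called lower and 1246 called higher in the data. Adjusted p-values depend on how many features change, so these shares may differ from detection in the data. Detection of falls in features near 5.301, the lowest deposited value, was not tested. The members, the lists and the tests were chosen with earlier results of these data known. Named transcripts are the 6 largest falls among silenced and among reduced members, those on both sides of 7, the extremes of level and spread, those at the limit and those beside another member; others were added after their values were seen. Precision is limited by the number of arrays, 3 a group. Alternatives were normalization, a dim-feature filter, the variance prior, a replicate block, other limits and leaving out each array.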

Additional observations from a re-analysis of the deposited data

How the results depend on the processing

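The count of 74 lost transcripts was 79 after median centring and 86 after quantile normalization, and each held all 74. It was 77 with overlapping groups allowed, a setting chosen after seeing the data. By construction it moved with the limit, to 421 at -1, 157 at -1.5 and 22 at -3. Without each array in turn it ran from 70 to 82, the silenced class from 24 to 34 and the reduced class from 35 to 41. With 6.5 or 7.5 in place of 7, the silenced numbered 19 or 35 and the reduced 44 or 31. All features called lower numbered 1130 and ran from 749 (without mutant replicate 3) to 1069 without each array, with fewer samples in each fit; the other settings gave 892 to 1273. Members called lower ran from 69 to 74 without each array and 71 to 72 otherwise. The median change beside the members ran from -0.083 (without mutant replicate 1) to -0.023 and was -0.073 without wild-type replicate 3; the cause was not tested. Deviations of arrays with the same number were not related (-0.036, -0.058 and -0.026, correlations across features), and with the replicate block 892 features and 71 members were called lower. Over 37 named features and 10 settings, the call and sign were as reported in 358 of 370 values, while 10 lost the call (7 of FBtr0071989, 3 of FBtr0080140), 2 gained it and 0 changed sign. Another background correction and a slide or scan date as a block were not run, since no scanner values or dates were used here.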
